A study of Mus musculus with 8 samples.

Results

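A set of 40 genes of the cell division cycle were followed through articular cartilage of the mouse knee, 13 that serve DNA synthesis in S phase and 27 that serve entry into and passage through mitosis. The rule names each gene for its known role in the cycle and uses no measured value, although it was written with earlier results of these data known. All 40 were found among the 52636 genes of the deposited tables. All 40 were also among the 12538 protein-coding genes tested, which had a TPM over 1 in at least 1 library, TPM being the share of transcripts of a library that come from a gene. The S phase genes were Mcm2, Mcm3, Mcm4, Mcm5, Mcm6, Mcm7, Pcna, Rrm1, Rrm2, Tyms, Cdc45, Cdc6 and Gins2. The mitotic genes were Mki67, Top2a, Cdk1, Ccnb1, Ccnb2, Ccna2, Ube2c, Birc5, Aurka, Aurkb, Plk1, Bub1, Bub1b, Cdc20, Cenpa, Cenpe, Cenpf, Kif11, Kif20a, Kif23, Kif2c, Tpx2, Nusap1, Prc1, Hmmr, Ect2 and Racgap1.

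The tissue came from C57BL/6 male mice that were wild type (WT) or lacked Oscar in the whole animal (Oscar-/-). Oscar encodes the osteoclast-associated receptor, a receptor for collagen. Mice had a sham operation or surgical destabilization of the medial meniscus (DMM), which brings on osteoarthritis, at an age of 10 to 12 weeks, and the labels give the age as 10 weeks. Cartilage was taken 2 or 4 weeks after surgery, and RNA of 10 cartilages was pooled into each library. The 8 conditions of genotype, surgery and week thus had 1 library each. The methods of the paper also name knee joint tissues as the source of the RNA, and the material is called cartilage here. No condition has a second library, and the p-values below come from models over all 8 libraries in which the spread left after the model terms stands in for replicate error. Total expected counts ran from 13189181 to 18533609 per library. Oscar had 42 to 118 expected counts in the WT libraries and 0 in all 4 Oscar-/- libraries, which allows up to 3 counts in each.

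A dividing cell copies its DNA in S phase and separates the copies in mitosis. The MCM proteins form the helicase that opens the double helix, with Cdc6 loading it and Cdc45 and the GINS complex switching it on, PCNA is the clamp that holds the polymerase on the strand, and ribonucleotide reductase (Rrm1, Rrm2) and thymidylate synthase (Tyms) supply the building blocks. Their genes are switched on by E2F factors as a cell leaves G1. Cyclin-dependent kinase 1 (Cdk1) with cyclins A and B then starts mitosis, kinesins and spindle proteins move the chromosomes, and the anaphase-promoting complex with Cdc20 and Ube2c ends it. The mitotic genes are switched on later, through CCAAT boxes bound by NF-Y and through the cell cycle homology region (CHR), a short element bound by the MuvB complex. Chondrocytes of adult articular cartilage rarely divide, whereas the marrow next to the joint holds rapidly dividing red cell and white cell precursors.

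The promoters of 6 of the 7 members that passed the interaction test described below, and of 2 S phase genes with matches to E2F sites, are shown to compare the elements they hold. Sequences are those of RefSeq on GRCm38.p6, which held a promoter for 34 of the 40 members. The others were Ccna2, Aurkb, Kif20a, Tpx2, Mcm4 and Gins2. Each line gives 250 bases that end just before the RefSeq start, in the direction of transcription, with every match to an E2F site (TTTCCCGC, TTTGGCGC, TTTCGCGC or TTTGCCGC), a CHR (TTTGAA or TTCGAA) or a CCAAT box (CCAAT) on either strand in capitals. Neighbouring matches can touch or overlap. A transcript start was found on the strand used for 32 of the 34 members. For Mcm5 and Mcm6 none was found, so the start of these sequences is less certain.
Cdk1 (chr10:69352913-69353162, minus strand): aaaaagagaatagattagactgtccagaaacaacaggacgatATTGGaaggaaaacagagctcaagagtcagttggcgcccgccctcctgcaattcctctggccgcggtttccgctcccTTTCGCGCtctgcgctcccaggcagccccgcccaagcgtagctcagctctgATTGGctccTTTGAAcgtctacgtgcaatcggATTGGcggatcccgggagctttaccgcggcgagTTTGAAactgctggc
Ccnb2 (chr9:70421555-70421804, minus strand): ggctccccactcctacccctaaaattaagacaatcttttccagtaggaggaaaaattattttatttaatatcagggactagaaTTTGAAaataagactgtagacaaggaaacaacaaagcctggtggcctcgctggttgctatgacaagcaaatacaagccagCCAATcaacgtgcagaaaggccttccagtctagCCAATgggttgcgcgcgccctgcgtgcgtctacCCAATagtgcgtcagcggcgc
Ube2c (chr2:164769679-164769928, plus strand): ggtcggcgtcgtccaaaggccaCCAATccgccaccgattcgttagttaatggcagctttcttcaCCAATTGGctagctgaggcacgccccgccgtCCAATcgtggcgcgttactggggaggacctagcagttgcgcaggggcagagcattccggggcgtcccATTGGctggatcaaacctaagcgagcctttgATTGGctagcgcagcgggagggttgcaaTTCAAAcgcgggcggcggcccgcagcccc
Birc5 (chr11:117848987-117849236, plus strand): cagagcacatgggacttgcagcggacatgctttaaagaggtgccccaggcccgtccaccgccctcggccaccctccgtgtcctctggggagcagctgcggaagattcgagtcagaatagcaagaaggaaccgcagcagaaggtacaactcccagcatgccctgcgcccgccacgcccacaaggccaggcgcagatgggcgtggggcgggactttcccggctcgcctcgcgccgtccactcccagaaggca
Nusap1 (chr2:119618048-119618297, plus strand): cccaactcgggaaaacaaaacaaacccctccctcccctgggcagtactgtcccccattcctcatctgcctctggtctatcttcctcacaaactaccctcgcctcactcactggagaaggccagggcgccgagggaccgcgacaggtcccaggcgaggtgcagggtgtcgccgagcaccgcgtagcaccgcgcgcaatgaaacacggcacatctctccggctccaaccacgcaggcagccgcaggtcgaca
Tyms (chr5:30073626-30073875, minus strand): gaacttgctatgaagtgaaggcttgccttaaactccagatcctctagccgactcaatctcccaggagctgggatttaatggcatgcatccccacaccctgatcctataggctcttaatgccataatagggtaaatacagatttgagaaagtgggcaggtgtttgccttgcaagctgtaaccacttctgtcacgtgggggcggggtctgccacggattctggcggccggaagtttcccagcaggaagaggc
Mcm5 (chr8:75109259-75109508, plus strand): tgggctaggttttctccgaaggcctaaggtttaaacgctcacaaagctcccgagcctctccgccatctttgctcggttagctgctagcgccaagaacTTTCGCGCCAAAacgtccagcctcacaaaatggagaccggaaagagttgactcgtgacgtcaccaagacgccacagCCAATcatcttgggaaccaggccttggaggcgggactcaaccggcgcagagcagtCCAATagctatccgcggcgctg
Mcm6 (chr1:128359706-128359955, minus strand): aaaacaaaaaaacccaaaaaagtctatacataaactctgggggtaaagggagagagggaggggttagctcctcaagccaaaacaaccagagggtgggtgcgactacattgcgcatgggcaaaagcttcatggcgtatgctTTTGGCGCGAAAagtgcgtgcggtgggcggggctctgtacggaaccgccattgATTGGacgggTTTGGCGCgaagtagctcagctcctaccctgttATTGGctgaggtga

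Over windows of 300 bases, 250 before and 50 after the start, a CHR was found in 19 of 23 mitotic promoters (82.6%) and in 3 of 11 S phase promoters, against 16.7% of the 9843 tested genes with a promoter. An E2F site was found in 5 of 11 S phase promoters and in 1 of 23 mitotic promoters, that of Cdk1, against 4.62% of the tested genes. Those 5 include Mcm5, Mcm6 and a promoter of Mcm7, for which no transcript start was found on the strand used. CCAAT boxes were in 20 of 23 mitotic and 9 of 11 S phase promoters, against 43.0%. Cdk1 held all 3 elements, and Ube2c had 6 CCAAT boxes. So did members that did not pass the interaction test, that promoter of Mcm7 with all 3 elements and that of Top2a with 6 CCAAT boxes. The other Mcm7 promoter, whose start was found, held 1 CCAAT box and neither of the other elements. Mcm5 and Mcm6 each had overlapping E2F sites read on opposite strands. The windows of Birc5, Nusap1 and Tyms held none of these letters, and these genes passed the interaction test as Cdk1 and Ube2c did. Matches to these letters were not shared by all the members that passed.

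The cell cycle genes were among the more abundant transcripts of this tissue. On TPM, which is scaled by transcript length, the median over the mean levels of the 13 S phase genes was 82.0 and that of the 27 mitotic genes 51.6, against 9.20 for all 12538 genes. The median of the 40 members stood at the 89.9 percentile of all genes tested. The highest mean levels among the S phase genes were those of Pcna (259.6 TPM), Rrm2 (187 TPM) and Rrm1 (106 TPM). Among the mitotic genes they were those of Ube2c (237 TPM), Birc5 (211 TPM), which encodes survivin, a subunit of the chromosomal passenger complex, and Cdk1 (199 TPM). The lowest S phase levels were those of Gins2 (22.8 TPM), Cdc45 (26.0 TPM) and Cdc6 (29.1 TPM). The lowest mitotic levels were those of the kinesin Kif2c (14.6 TPM), the checkpoint kinase Bub1 (14.8 TPM) and Ect2 (14.98 TPM), which acts in cytokinesis. Expected counts ran from 519 to 17902, so that counting error was small for every member.

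All members together took 0.275% to 0.365% of TPM. Markers of red cells and late neutrophil granules were far more abundant than those of cartilage. The 15 erythroid markers, led by Hbb-bs, Hba-a2, Hba-a1 and Hbb-bt, summed to 26.7% to 37.9% of TPM, and the 8 late neutrophil granule genes, led by S100a9, S100a8, Ngp and Camp, to 6.70% to 10.8%. The 15 chondrocyte markers, led by Prg4, Comp, Col10a1 and Col2a1, summed to 0.0864% to 0.201%, with Matn1 not above 1 TPM in any library. Col2a1 was at 59.5 to 209 TPM. Other marrow lists were not above the chondrocyte list by far. The 5 neutrophil primary granule genes summed to 0.145% to 0.234%. Megakaryocyte, B cell precursor and stem and early progenitor markers reached at most 0.0827%, 0.0450% and 0.0128%. Cells in division were not separated from the rest, and in pooled tissue fewer dividing cells and less of these RNAs per cell cannot be told apart.

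The order of the libraries depended on how they were scaled. TPM adds up to a fixed total in each library, so a larger share of abundant transcripts leaves less for the others. The hemoglobin genes took 26.5% of TPM in Oscar-/- sham at 4 weeks and 37.7% in WT sham at 2 weeks. With them left out, the median log2 ratio of 4 to 2 weeks over all genes in WT sham was 0.36, against 0.54 with them. The part of hemoglobin in the order of the libraries was not tested. On TPM 36 of 40 members were highest in WT sham at 4 weeks and 27 of 40 lowest in WT sham at 2 weeks. With counts scaled by the trimmed mean of M values (TMM CPM), which is not scaled by length and serves to compare libraries within a gene, 28 members were highest in Oscar-/- DMM at 2 weeks and 9 in WT sham at 2 weeks. On that scale 19 were lowest in Oscar-/- sham at 4 weeks and 17 in WT DMM at 4 weeks. The highest library exceeded the lowest by a median of 1.36-fold over the members on TMM CPM, against 1.41-fold over all genes. The range over members was 1.16-fold (Racgap1, a regulator of cytokinesis) to 1.60-fold (Tyms).

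**Figure D1:**
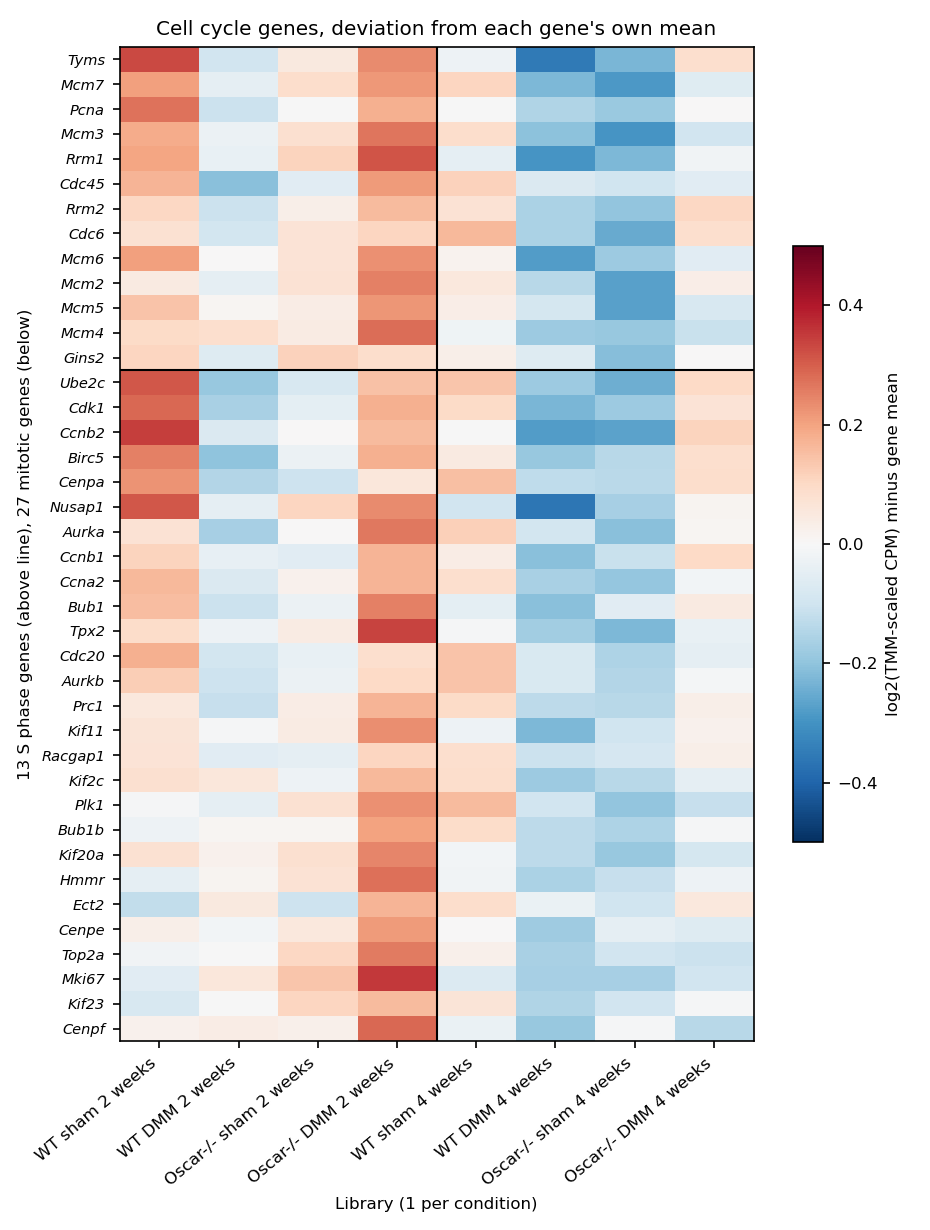
Level of each cell cycle gene in each library, as log2 of TMM-scaled CPM minus the mean of the gene over the 8 libraries (color). Rows are the 13 S phase genes above the line and the 27 mitotic genes below it, each ordered by the interaction of genotype and surgery, and columns are the 8 libraries. Oscar-/- DMM at 2 weeks is the highest library for 28 of the 40 genes, and WT DMM and Oscar-/- sham at 4 weeks are the lowest for 17 and 19.

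The comparison that the design centers on is whether the joint tissue of mice lacking Oscar responded to DMM as that of WT mice did. With libraries scaled by TMM, the fitted response to DMM was below 0 in WT for 38 of the 40 members, and above 0 in Oscar-/- for all 40. In WT 5 members passed the test, against 0.502% of all genes called lower, and in Oscar-/- none passed, against 0.112% of all genes called. All 40 members had a higher fitted response in Oscar-/- than in WT, with a median interaction of 0.38 on the log2 scale (0.14 for Cenpf to 0.69 for Ube2c) and a median standard error (SE) of 0.13. The median over all genes was -0.01, with 49.1% above 0. Of the members, 7 passed an adjusted p of 0.05 in edgeR's quasi-likelihood test, all higher, which is 17.5%, against 1.41% of all genes called higher and 3.83% called lower. Among them were 6 of the 27 mitotic genes and 1 of the 13 S phase genes, and 27 of the 40 had an unadjusted p under 0.05 (67.5%, against 24.2% of all genes in either direction).

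Cdk1 (ENSMUSG00000019942), the kinase that drives entry into mitosis, went from 245 TMM CPM after sham to 180 after DMM in the WT pair of 2 weeks and from 215 to 172 in that of 4 weeks. In the Oscar-/- pairs it went from 194 to 228 and from 177 to 211. Both WT sham libraries lay above both WT DMM libraries, and both Oscar-/- DMM libraries lay above both Oscar-/- sham libraries. This gene and those below were picked by the interaction test on the same 8 libraries, so such an order is no further evidence. The share of all genes with it was not counted. The interaction was 0.63 ± 0.12 (log2, SE, adjusted p = 0.0196).

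Ube2c (ENSMUSG00000001403), the conjugating enzyme that adds ubiquitin to cyclin B for the anaphase-promoting complex, went from 273 to 193 TMM CPM between sham and DMM in the WT pair of 2 weeks and from 243 to 195 in that of 4 weeks. Its values in the Oscar-/- pairs went from 209 to 244 and from 186 to 237. Sham and DMM libraries did not overlap in either genotype, and their order was opposite in the genotypes. This was the member with the highest interaction, 0.69 ± 0.12 (adjusted p = 0.0186).

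Ccnb2 (ENSMUSG00000032218), cyclin B2, a partner of Cdk1, went from 230 to 172 and from 180 to 149 TMM CPM between sham and DMM in the WT pairs of the earlier and later week. In the Oscar-/- pairs it went from 181 to 202 and from 150 to 196. Here too sham and DMM did not overlap within a genotype, and the interaction was 0.62 ± 0.13 (adjusted p = 0.0271). Ccnb1, cyclin B1, moved the same way, from 159 to 144 and from 152 to 128 TMM CPM in the WT pairs and from 142 to 166 and from 137 to 158 in the Oscar-/- pairs. Its interaction of 0.42 ± 0.11 did not pass (adjusted p = 0.0578).

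Birc5 (ENSMUSG00000017716) went from 249.8 to 182 and from 216 to 184 TMM CPM in the WT pairs and from 206 to 237 and from 191 to 222 in the Oscar-/- pairs. Cenpa (ENSMUSG00000029177), the histone H3 variant that marks the centromere, went from 190 to 147 and from 181 to 149 TMM CPM in WT and from 152 to 169 and from 148 to 173 in Oscar-/- over the same pairs. For both genes the sham and DMM libraries of a genotype did not overlap. Birc5 had an interaction of 0.56 ± 0.12 (adjusted p = 0.0305) and Cenpa one of 0.52 ± 0.11 (adjusted p = 0.0304).

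Nusap1 (ENSMUSG00000027306), which bundles spindle microtubules, went from 247 to 193 and from 187 to 155 TMM CPM in the WT pairs and from 215 to 234 and from 177 to 201 in the Oscar-/- pairs. Its libraries at 4 weeks were lower than those at 2 weeks of the same genotype and surgery, and sham and DMM overlapped between the weeks. Its interaction was 0.47 ± 0.12 (adjusted p = 0.0482). Tyms (ENSMUSG00000025747), the enzyme that makes thymidylate for DNA synthesis, went from 108 to 80.4 and from 84.3 to 67.3 TMM CPM in the WT pairs and from 88.8 to 101.3 and from 73.3 to 91.1 in the Oscar-/- pairs, with no overlap of sham and DMM in either genotype. It was the S phase gene with the highest interaction, 0.63 ± 0.12 (adjusted p = 0.0206).

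**Figure D2:**
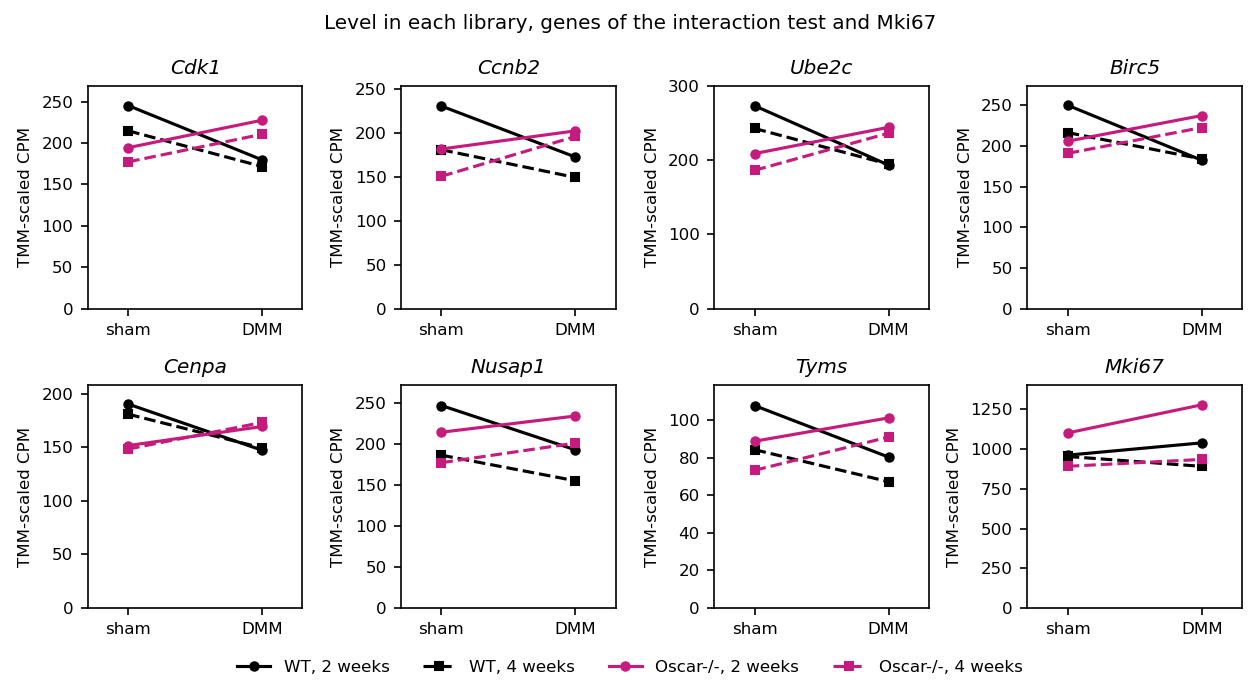
TMM-scaled CPM (vertical axis, starting at 0) in the 8 libraries for the 7 members that passed the interaction test and for Mki67, from sham to DMM. Each point is 1 library, black for WT and pink for Oscar-/-, with circles and solid lines for 2 weeks and squares and dashed lines for 4 weeks. In the 7 genes the WT lines fall and the Oscar-/- lines rise at both weeks, while Mki67 in WT goes from 962 to 1039 at 2 weeks and from 953.5 to 891 at 4 weeks.

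The best-known markers of proliferation were not among these genes. Mki67, which encodes the Ki-67 antigen, went from 962 to 1039 and from 953.5 to 891 TMM CPM in the WT pairs and from 1102 to 1279 and from 892 to 935 in the Oscar-/- pairs. Its interaction was 0.14 ± 0.17 with a 95% confidence interval from -0.22 to 0.51 (adjusted p = 0.647). Top2a, the topoisomerase that untangles chromosomes, had 0.16 ± 0.15 (adjusted p = 0.544). Ccna2, cyclin A2, had 0.40 ± 0.13 (adjusted p = 0.0874), and Cdc20, the activator of the anaphase-promoting complex, had 0.36 ± 0.12 (adjusted p = 0.0926).

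The S phase genes had a median interaction of 0.43 (0.22 for Gins2 to 0.63 for Tyms), and 11 of 13 had an unadjusted p under 0.05. The mitotic genes had a median of 0.35, and 16 of 27 had such a p. Pcna went from 475 to 364 and from 393 to 354 TMM CPM in the WT pairs and from 392 to 445 and from 345 to 393 in the Oscar-/- pairs, with an interaction of 0.45 ± 0.13 (adjusted p = 0.0730). The subunits of ribonucleotide reductase gave 0.44 ± 0.12 (Rrm1, adjusted p = 0.0606) and 0.43 ± 0.13 (Rrm2, adjusted p = 0.0827). The helicase subunits ranged from 0.25 (Mcm4) to 0.47 (Mcm7), with 0.38 ± 0.14 for Mcm2 and 0.32 ± 0.13 for Mcm5. The loader Cdc6 had 0.43 ± 0.14 (adjusted p = 0.102). None of these passed, although all lay on the same side of 0.

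These calls rested on the scaling and on single libraries. With libraries scaled by their totals alone, or with limma on log2(TPM + 1), no member passed and few genes were called higher at all (21 and 8 of 12538, against 177 in the model as designed). The median interaction of the members was 0.21 and 0.10, and that of all genes was -0.19 and -0.26. The members stood above the median of all genes by 0.39 in the model as designed, by 0.40 with library totals and by 0.36 on TPM, and all 40 lay above that median under each of these scalings. When single libraries of 2 weeks were left out, no member passed without WT DMM or without Oscar-/- sham, where 2 and 1 of all 12538 genes were called higher. Without Oscar-/- DMM 4 members passed, with 87 of all genes, and without WT sham 9 passed, with 115. Among those of 4 weeks, 11 members passed without WT sham, with 964 of all genes called higher. None passed without WT DMM, Oscar-/- sham or Oscar-/- DMM, where 1, 2 and 9 of all genes were called higher. At least 38 of 40 members had an interaction above 0 in each of these fits, with medians from 0.32 to 0.42.

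By week, the difference between the genotypes was seen at both times on TMM CPM. At 2 weeks the median log2(DMM/sham) of the 40 members was -0.17 in WT, with 33 below 0, and 0.18 in Oscar-/-, with 39 above 0. At 4 weeks it was -0.22 in WT, with all 40 below 0, and 0.17 in Oscar-/-, with 37 above 0. The counting SE of a single ratio had a median of 0.04, and the medians of all genes lay between -0.01 and 0.02. Both Oscar-/- ratios were above both WT ratios for 35 of the 40 members, against 28.7% of all genes.

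On TPM the same ratios read differently, since the median of all genes was itself 0.35 in the WT pair and -0.03 in the Oscar-/- pair of 2 weeks, and 0.05 and -0.15 in those of 4 weeks. The members' median was 0.13 and 0.11 at 2 weeks, so that the sign in WT was opposite to that on TMM CPM. At 4 weeks it was -0.18 (WT) and 0.02 (Oscar-/-). Relative to all genes the WT values were -0.21 at 2 weeks and -0.23 at 4 weeks and the Oscar-/- values 0.15 and 0.17. Both Oscar-/- ratios exceeded both WT ratios for 12 members on TPM (30.0%), against 6.00% of all genes.

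**Figure D3:**
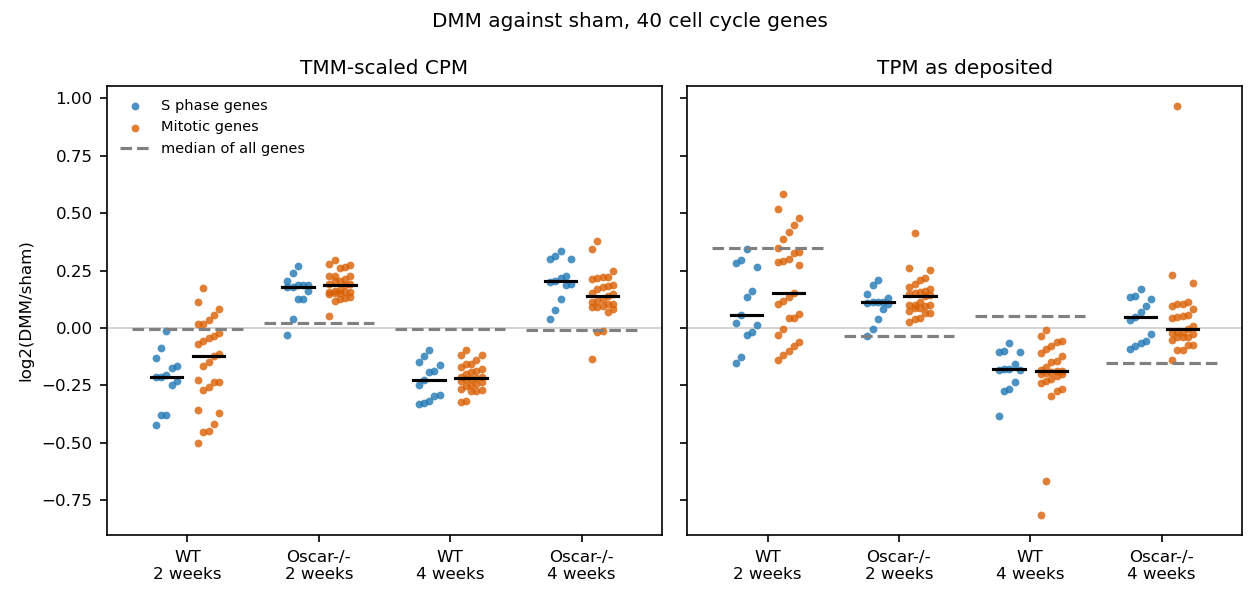
log2(DMM/sham) of each of the 13 S phase genes (blue) and 27 mitotic genes (orange) by genotype and week, on TMM-scaled CPM at the left and TPM at the right. Black bars are class medians and dashed gray lines the median of all genes on the same scale. On both scales WT members lie mostly below the line of all genes and Oscar-/- members mostly above it, while the position of 0 differs between the scales, and the extreme orange points on TPM are Cenpf and Cenpe.

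Within WT cartilage, 5 of the 40 members were lower after DMM over both weeks in edgeR, against 0.502% of all genes called lower. None was called higher, against 4.36% of all genes. They were Ube2c with -0.41 ± 0.09 (log2, SE, adjusted p = 0.0202), Cdk1 with -0.39 ± 0.08 (adjusted p = 0.0198), Tyms with -0.38 ± 0.08 (adjusted p = 0.0255), Birc5 with -0.34 ± 0.09 (adjusted p = 0.0461) and Cenpa with -0.32 ± 0.08 (adjusted p = 0.0423). The median of the members was -0.20, and 22 of the 40 had an unadjusted p under 0.05, all lower, against 21.5% of all genes in either direction. Mki67 (0.00 ± 0.12) and Ect2 (0.03 ± 0.10) were the members whose estimate was not below 0. No member passed with library totals or with limma on log2(TPM + 1), where 15 and 21 of all 12538 genes were called lower, against 63 in the model as designed. No member was called without WT sham or WT DMM or Oscar-/- sham of 2 weeks or without WT DMM of 4 weeks, where 6, 3, 28 and 11 of all genes were called lower. The count was 4 without either Oscar-/- DMM library, with 77 of all genes each time. It was 2 without Oscar-/- sham of 4 weeks, with 40 of all genes, and 8 without WT sham of 4 weeks, with 803.

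Within Oscar-/- cartilage no member passed, against 0.112% of all genes, although all 40 estimates were above 0 with a median of 0.17 and 12 had an unadjusted p under 0.05 (12 of 40, against 11.6% of all genes). DESeq2 and limma called no member either. The lowest adjusted p was that of Ube2c, 0.238, with 0.28 ± 0.09, followed by Tyms with 0.25 ± 0.08 (adjusted p = 0.270) and Ccnb2 with 0.27 ± 0.09 (adjusted p = 0.280). The interaction and the tests within each genotype use the same 8 libraries and are not independent of each other.

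Averaged over the genotypes, surgery called no member and 0% of all genes in edgeR. No member had an unadjusted p under 0.05, against 6.42% of all genes. DESeq2 called 73 genes, none of them a member, limma called no member, and the estimates ran from -0.08 to 0.12 (Ect2). The members with a sign opposite to most of their class were Mcm2, Mcm4 and Mcm5 of the S phase genes and Mki67, Ccnb1, Aurka, Bub1b, Kif11, Kif20a, Kif23, Tpx2, Hmmr and Ect2 of the mitotic genes, all higher. Genotype called no member, against 0.0479% of all genes, with none under an unadjusted p of 0.05 and none called by DESeq2 or limma. Its estimates ran from -0.08 (Cdc20) to 0.12 (Mki67), and those of Mcm3, Mcm5, Mcm7, Pcna, Gins2, Ccna2, Ube2c, Aurkb, Plk1, Cdc20, Cenpa and Kif2c had the opposite sign to most of their class. A change shared by both genotypes, or a difference shared by both surgeries, was not detectable among these genes with this design.

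The week after surgery called no member in edgeR, against 7.94% of all genes, and none in DESeq2 or in limma on TMM CPM. The median from 2 to 4 weeks was -0.14, with Ect2 (0.00 ± 0.08) the one member not below 0, and 10 members had an unadjusted p under 0.05, all lower, a share close to the 27.2% of all genes. The lowest p was that of Mcm4 with -0.25 ± 0.08 (adjusted p = 0.0822), followed by Nusap1 with -0.30 ± 0.10 (adjusted p = 0.0912) and Rrm1 with -0.29 ± 0.10 (adjusted p = 0.0987). The direction turned with the scaling, since limma on log2(TPM + 1) gave a median of 0.13, with 33 of 40 above 0, where the median of all genes was 0.23. It called 1 member higher, Aurkb, the kinase of the chromosomal passenger complex (0.33, limma adjusted p = 0.0386), while it called 2639 of all 12538 genes higher. On TMM CPM the decrease was larger in Oscar-/-, with 39 of 40 members lower at 4 weeks in sham and 39 in DMM, than in WT, with 27 in sham and 32 in DMM. That difference was not tested. The weeks were sequenced on different lanes by the deposited names, and at the later week so were the genotypes, so that the lane cannot be told apart from the week or, at that week, from the genotype.

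The difference between the class medians also moved with the week on TPM, a measure that depends on which gene lies at the middle of each class. The median log2 TPM of the S phase genes was above that of the mitotic genes by 0.77 to 0.85 in the 4 libraries of 2 weeks and by 0.51 to 0.62 in the 4 libraries of 4 weeks, without overlap. Summed TPM of the mitotic genes was 1.62 to 1.67 times that of the S phase genes at 2 weeks and 1.69 to 1.73 times at 4 weeks. Gene by gene, the median log2 ratio of 4 to 2 weeks on TPM in WT sham was 0.41 (S phase) and 0.56 (mitotic). The classes lay closer in WT DMM (0.15 and 0.17), Oscar-/- sham (-0.016 and 0.049) and Oscar-/- DMM (-0.10 and -0.05). A shift of the balance between the phases was not tested. On TMM CPM the differences of the medians were 0.50 to 0.61 at 2 weeks and 0.31 to 0.55 at 4 weeks, which overlapped. Within the pairs of sham and DMM the measure was lower after DMM in all 4 on TPM and higher after DMM in all 4 on TMM CPM, so that its direction with surgery turned with the scale. Oscar-/- was above WT at each week and surgery on TPM, and on TMM CPM at 2 weeks but not at 4 weeks.

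Transcript length moved with the interaction. Over the 40 members Spearman's correlation between mean effective length and the interaction was -0.68, and over all 12538 genes, which are not independent replicates, it was -0.45. Of the 7 called members, 5 had an effective length under 1000 bases, and these were all the members of that length. Of all 12538 genes, 1767 were that short, and the share of them called higher was not counted. The members under 1000 bases had a median interaction of 0.63, and all genes of that range had 0.26. Members of 1000 to 2000 bases had 0.44 against 0.11, those of 2000 to 3000 bases 0.37 against -0.03, and those of 3000 to 5000 bases 0.25 against -0.14. The pair above 5000 bases, Mki67 and Cenpf, had 0.14 against -0.30. In every range the members stood 0.33 to 0.44 above all genes of like length. For the response to DMM in WT the correlation had the opposite sign, 0.73 for the members and 0.46 for all genes, and the members stood below all genes in every range, by 0.15 to 0.23. The part of length in the calls was not tested.

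**Figure D4:**
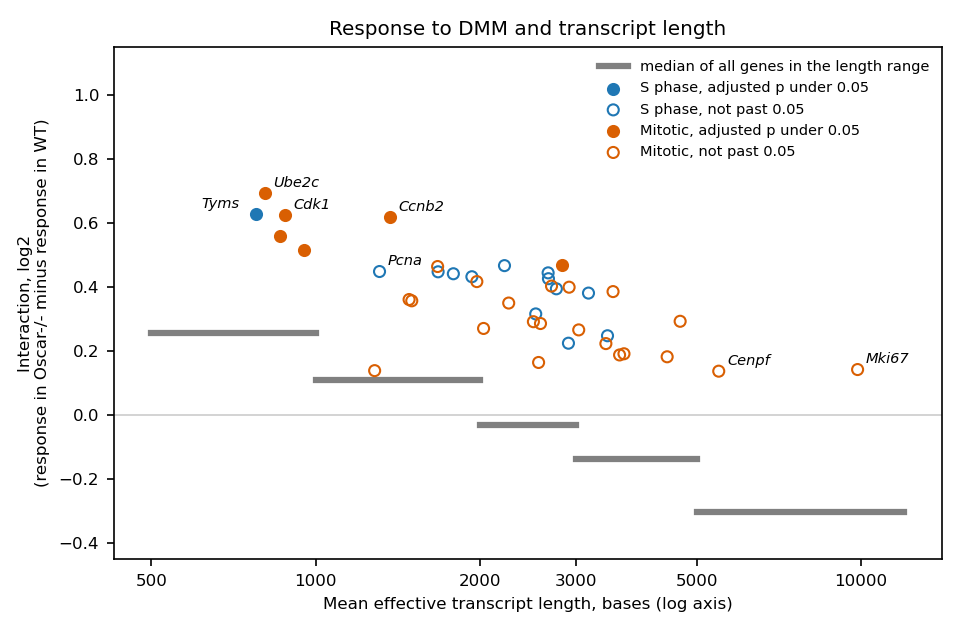
Interaction of genotype and surgery (log2, response to DMM in Oscar-/- minus response in WT) against mean effective transcript length in bases, on a log axis. Circles are the 40 members, filled where the adjusted p was under 0.05, and gray bars are the median of all genes in each length range. The called genes sit mostly at the left, under 1000 bases, and members in every range lie above the gray bar, by 0.33 to 0.44 at the median.

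Cenpf and Cenpe, large proteins of the kinetochore, were the members whose TPM could be misread. At 4 weeks Cenpf went from 21.2 to 12.1 TPM between sham and DMM in WT and from 10.3 to 20.1 TPM in Oscar-/-. On TMM CPM, from counts alone, the same pairs went from 94.0 to 84.3 and from 95.8 to 87.3. The effective length that RSEM gave the gene went from 4417 to 7239 bases in the WT pair and from 8898 to 3765 bases in the Oscar-/- pair, and the TPM was low where the length was high. At 2 weeks Cenpf had 12.6 and 18.8 TPM in the WT pair and 17.1 and 17.4 TPM in the Oscar-/- pair, with 97.6 and 98.8 and 97.8 and 118 TMM CPM. Cenpe likewise went from 22.3 TPM in WT sham to 14.1 TPM in WT DMM at 4 weeks with lengths of 3874 and 5639 bases. These were the members whose effective length varied by more than 1.5-fold, and their interactions on counts were 0.14 ± 0.15 (Cenpf, adjusted p = 0.607) and 0.18 ± 0.12 (Cenpe, adjusted p = 0.396).

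Other genes of the cycle, in 6 lists of 127 genes of which 125 were tested, were examined in the same fits. In the interaction 16 of them passed higher (12.8%, against 1.41% of all genes). The 3 that passed lower were 2.4%, below the 3.83% of all genes. Of the 125, 114 were above 0, with a median of 0.35. Of 16 genes of origin licensing and firing 2 passed, the licensing factor Cdt1 (0.48 ± 0.12) and its inhibitor Gmnn (0.58 ± 0.13). Of 23 genes of the replication fork 3 passed, the single-strand binding subunit Rpa2 (0.56 ± 0.12), the flap endonuclease Fen1 (0.52 ± 0.12) and the chromatin assembly subunit Chaf1b (0.49 ± 0.13). Of 10 genes of nucleotide supply 2 passed, the dUTPase gene Dut (0.66 ± 0.13) and thymidine kinase Tk1 (0.50 ± 0.12). Of 52 other mitotic genes 6 passed, with Cks2, a Cdk1 subunit (0.60 ± 0.12), Cdca3 (0.59 ± 0.12) and the chromosomal passenger Cdca8 (0.53 ± 0.11) at the lowest adjusted p.

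The genes that act earlier in G1 were mixed. Of 18 G1/S cyclins, kinases and E2F factors 1 was higher, cyclin E1 (Ccne1, 0.52 ± 0.13, adjusted p = 0.0418), and 2 were lower, cyclin D1 (Ccnd1, -0.58 ± 0.14, adjusted p = 0.0395) and cyclin D2 (Ccnd2, -0.63 ± 0.14, adjusted p = 0.0288). Ccnd2 went from 42.2 to 62.6 and from 42.5 to 56.3 TMM CPM in the WT pairs and from 63.5 to 55.2 and from 50.96 to 48.5 in the Oscar-/- pairs. Both WT sham libraries were the lowest of the 8. Of 6 tested CDK inhibitors Cdkn1a (p21), which halts the cycle, was lower (-0.62 ± 0.15, adjusted p = 0.0406), whereas Cdkn2d (p19INK4d) and Cdkn3, a phosphatase that is itself transcribed in dividing cells, were higher (0.50 ± 0.11, adjusted p = 0.0319, and 0.67 ± 0.15, adjusted p = 0.0316). In WT 2 of the 125 were higher after DMM in edgeR (1.6%, against 4.36% of all genes). They were cyclin D2 (Ccnd2, 0.49 ± 0.10, adjusted p = 0.0143) and p21 (Cdkn1a, 0.52 ± 0.11, adjusted p = 0.0184). In WT 9 of the 125 were lower after DMM (7.2%, against 0.502% of all genes). Among them were Gmnn (-0.43), Dut (-0.44), Cdkn2d (-0.34), Cdkn3 (-0.49), Cks2 (-0.41), Cdca3 (-0.38) and the centromere gene Cenph (-0.42). None of the 125 passed in Oscar-/- cartilage, for surgery or for genotype, where 0.112%, 0% and 0.0479% of all genes were called. From 2 to 4 weeks Cdk4 (-0.33 ± 0.09, adjusted p = 0.0473) fell and the inhibitor Cdkn1b (p27, 0.26 ± 0.07, adjusted p = 0.0488) rose. The week called 7.94% of all genes. On log2(TPM + 1) Cdk4 had 0.01, of the opposite sign. With library totals Cdk4 had -0.20 and did not pass (edgeR adjusted p = 0.137). Without single libraries its estimate ran from -0.40 to -0.27.

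Markers of several cell types moved in the same tests. Of all genes, 1.41% were called higher in the interaction and 0.502% lower after DMM in WT. Summed erythroid markers took 37.9% and 29.9% of TPM in WT sham (2 and 4 weeks), 30.9% and 31.2% in WT DMM, 32.6% and 26.7% in Oscar-/- sham, and 34.7% and 37.3% in Oscar-/- DMM. This sum is mostly hemoglobin, which alone took 37.7% of TPM in WT sham at 2 weeks. It was higher after DMM in both Oscar-/- pairs, while the WT pairs went in opposite directions. Gene by gene in the WT fit, 14 of the 15 erythroid markers were below 0 after DMM, with a median of -0.26 and 1 called lower. The erythroid markers had a median interaction of 0.57, with all 15 above 0 and 4 called higher, among them Klf1, the master regulator of red cell genes (0.74 ± 0.15), and the erythropoietin receptor Epor (0.61 ± 0.12). The 6 megakaryocyte markers had 0.90, with 4 called higher, Pf4, Gp9, Gp1bb and Itga2b. The 5 primary granule genes of neutrophil precursors, led by Mpo, Elane, Prtn3 and Ctsg, had a median of 0.40 with none called. In WT 4 of these 5 (Elane, Prtn3, Ctsg and Ms4a3) were lower after DMM, with a median of -0.45 over the list. The 6 tested T cell genes, with Lck and Cd3g, had 0.53 and the 8 late granule genes 0.14, with none called. Trbc1 and Trbc2 were not tested.

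The stromal lists lay on the other side. Of all genes, 3.83% were called lower in the interaction and 4.36% higher after DMM in WT. The 10 fibroblast genes, led by Col1a2, Dcn, Col1a1 and Lum, had a median interaction of -1.06 with 7 called lower, and in WT 8 of them were higher after DMM. The 9 osteoblast genes (Bglap, Spp1, Bglap2 and Ibsp the most abundant) had -0.74 with 5 lower, the 8 endothelial genes (Pecam1, Vwf, Emcn and Cldn5) -0.56 with 5 lower, and the 14 tested chondrocyte genes -0.81 with 3 lower. The 11 B cell precursor genes (Cd79a, Cd79b, Vpreb3 and Igll1) had -0.25, the 7 macrophage genes (C1qb, C1qa, C1qc and Cd68) -0.15 and the 8 stem and early progenitor genes (Cd48, Myb, Cd34 and Kit) -0.07 with Cd34 lower. Summed fibroblast markers ran from 772 to 2073 TPM and summed endothelial markers from 51.4 to 114 TPM, and no marker was at 0 in all libraries. The part of these cell types in the values of the cell cycle genes was not tested.

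**Figure D5:**
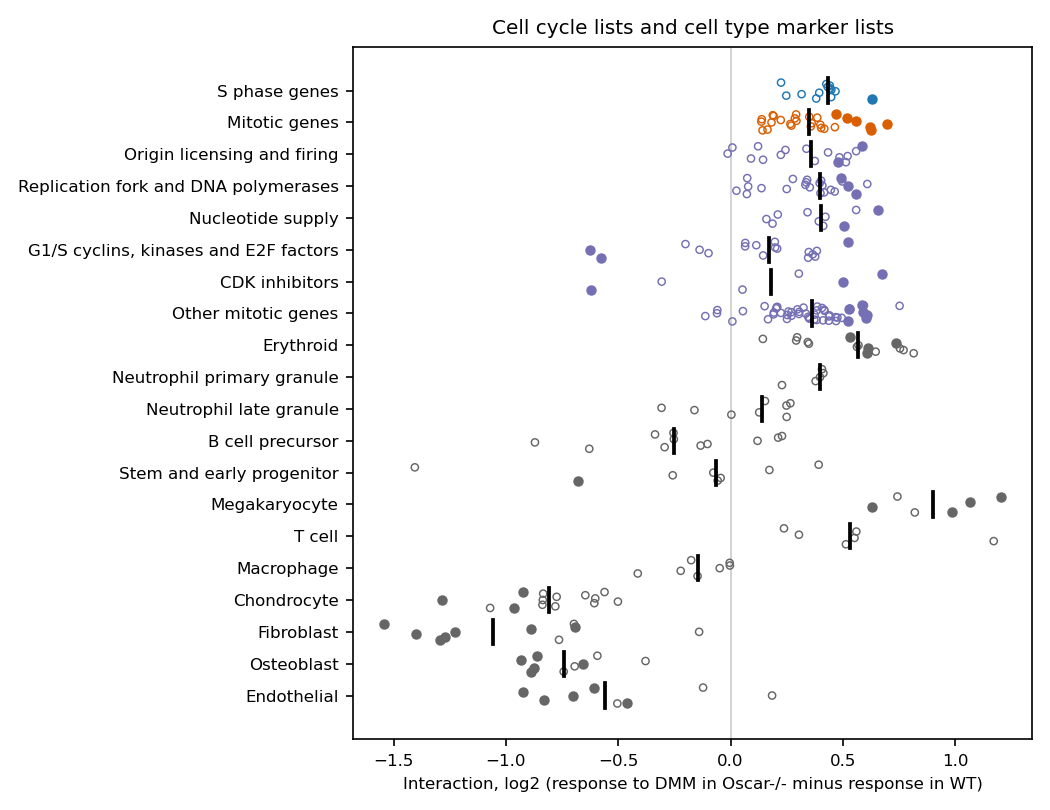
Interaction of genotype and surgery (log2, response to DMM in Oscar-/- minus response in WT) for each gene of the S phase and mitotic classes, of the 6 other cell cycle lists (purple) and of the 12 cell type marker lists (gray). Filled points had an adjusted p under 0.05 and black bars are list medians. The S phase and mitotic classes have medians of 0.43 and 0.35. Marker list medians run from 0.90 (megakaryocyte) to -1.06 (fibroblast), with erythroid at 0.57, T cell at 0.53 and neutrophil primary granule at 0.40.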

How the data were processed

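Articular cartilage RNA was sequenced by the authors as stranded mRNA libraries, aligned with STAR and quantified with RSEM. Versions in the processing notes of the submitters are 2.6.0a for STAR, 1.2.17 for RSEM and 0.11.8 for FastQC. These notes list a human build, but every identifier is a mouse Ensembl gene. The authors deposited expected counts, which are estimates and were rounded here, and TPM, which the authors scaled by effective length to a fixed total. RSEM divides reads among genes that share them, so genes with near-identical copies are less certain. Symbols came from GENCODE M21 on GRCm38 (52403 of 52636 identifiers matched).

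Protein-coding genes with TPM over 1 in at least 1 library (12538) were fitted with edgeR 4.0.16 (R 4.3.3), TMM scaling, quasi-likelihood tests and Benjamini-Hochberg adjustment over all of them. With additive terms for week, genotype and surgery 4 degrees of freedom remained, and 3 remained once the interaction was added. The interaction is the response to DMM in Oscar-/- minus that in WT. Alternatives were DESeq2 1.42.0, limma 3.58.1 on log2(TPM + 1) or log2(TPM + 0.1), other scalings and filters, and leaving out each library. limma on log2 TMM CPM was chosen after seeing the data. With 1 library per condition, ratios by week carry counting error alone.

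Members and lists were chosen with earlier results of these data known. Named genes were 14 well-known members, those of lowest adjusted p under 0.05 in each class and test (at most 6 per direction) and in each other cell cycle list (at most 3), the 3 highest and 3 lowest levels in each class, members against the direction of their class, and the 4 most abundant genes of each marker list. Other genes named were chosen after their values were seen. A further gene of the other cell cycle lists is not reported here.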

Additional observations from a re-analysis of the deposited data

Results flagged for a closer look

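The response to DMM differed between the genotypes by the interaction test of edgeR for these members, with the Oscar-/- response minus the WT response on the log2 scale given for each. Among the members it was 0.69 for Ube2c, 0.63 for Cdk1, 0.63 for Tyms, 0.62 for Ccnb2, 0.56 for Birc5, 0.52 for Cenpa and 0.47 for Nusap1. Among other genes of DNA replication it was 0.66 for Dut, 0.58 for Gmnn, 0.56 for Rpa2, 0.52 for Fen1, 0.50 for Tk1, 0.49 for Chaf1b and 0.48 for Cdt1. Among other mitotic genes it was 0.60 for Cks2, 0.59 for Cdca3, 0.58 for Cenph and 0.53 for Cdca8. Among regulators of G1 it was 0.67 for Cdkn3, 0.52 for Ccne1, 0.50 for Cdkn2d, -0.58 for Ccnd1, -0.62 for Cdkn1a and -0.63 for Ccnd2. The adjusted p of these genes lay between 0.0186 and 0.0482 in edgeR, and none of them passed with limma on log2(TPM + 1).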

How the results depend on the processing

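The interaction called 7 members higher in the designed fit (177 of all 12538 genes), 12 with DESeq2 (174), 8 with limma on log2 TMM CPM (167), 21 when all 26836 genes with a count were tested (778), and 0 with library totals (21) and with limma on log2(TPM + 1) or log2(TPM + 0.1) (8 each). Without single libraries it called 0 to 11 members and 1 to 964 genes. Surgery in WT called 5 members lower (63 of all genes), 9 with all genes with a count (516), 0 with library totals (15) and with limma on TPM (21 and 20), and 0 to 8 without single libraries (3 to 803). The week called 1 member higher with limma on TPM at pseudocounts of 1 and 0.1 (2639 and 2616 of all genes) and 0 otherwise. On TMM CPM in place of TPM, the median log2(DMM/sham) was -0.21 (S phase) and -0.12 (mitotic) in WT at 2 weeks against 0.06 and 0.15, and 0.21 and 0.14 in Oscar-/- at 4 weeks against 0.05 and -0.0041. With hemoglobin genes left out of TPM these 4 medians were -0.096, -0.00054, 0.27 and 0.22. The S phase minus mitotic difference on TMM CPM was 0.50, 0.53, 0.57 and 0.61 at 2 weeks (WT sham, WT DMM, Oscar-/- sham, Oscar-/- DMM), and 0.44, 0.55, 0.31 and 0.38 at 4 weeks in the same order. Of the 40 members, 12 had an interaction below 0 with limma on TPM at either pseudocount and 4 with library totals. Among the well-known members named in the text, the sign changed for Mki67 with limma on TPM (-0.186 and -0.188 at pseudocounts of 1 and 0.1), with library totals (-0.0312) and without single libraries (-0.01705 to 0.2916 over all 8), for Top2a with library totals (-0.00994) and for Mcm5 with limma on TPM (-0.0161 and -0.0166). The week estimate of Cdk4 became 0.01065 and 0.01069 on TPM. Except where the scaling itself differs, the cause was not tested. No paired analysis was possible because each condition has 1 library, so that no groups share more than 1 replicate number, and the week was a term of every model. With 7 libraries a condition is missing, and its spread is assumed to be like that of the others.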
